A study of Mus musculus with 16 samples.

Results

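The Cyp4a genes and Cyp4f14 encode cytochrome P450 enzymes that add a hydroxyl group to the far (omega) end of fatty acids and related lipids. The account below covers 7 of them: Cyp4a10, Cyp4a14, Cyp4a31 and Cyp4a32, taken as driven by the nuclear receptor PPAR alpha, Cyp4a12a and Cyp4a12b, and Cyp4f14. They were chosen by name. All 7 were found among the 53801 gene IDs of the count table, and all 7 were among the 14351 genes that passed the filter on low counts. Whole mouse livers were sequenced in 4 groups of 4: controls on normal chow, mice with a liver-specific knockout of Degs1 on normal chow, controls on a high-fat diet, and liver-specific Degs1 knockouts on a high-fat diet. The product of Degs1 is dihydroceramide desaturase, which carries out the last step of ceramide synthesis. The sources used here give neither the driver of the liver-specific deletion nor the strain, age or sex, nor the length and fat content of the diet. The labels give each liver a number of its own, and the numbers of each group form a separate range, so anything that goes with these numbers cannot be told apart from diet or genotype.

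Omega-hydroxylation turns a fatty acid into an omega-hydroxy acid, which alcohol and aldehyde dehydrogenases oxidise to a dicarboxylic acid for shortening in peroxisomes. PPAR alpha is activated by fatty acids and by fibrate drugs, and Cyp4a10 and Cyp4a14 are among its most responsive targets in mouse liver. Cyp4a12a and Cyp4a12b form a separate branch: they are male-biased genes controlled by androgen and growth hormone, and Cyp4a12a makes 20-HETE, a vasoactive product of arachidonic acid. Cyp4f14 hydroxylates leukotriene B4 and other eicosanoids.

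The 6 Cyp4a members lie in a single cluster on chromosome 4 of GRCm38, in the order Cyp4a12a (115299046 to 115332815), Cyp4a12b (115411624 to 115439034), Cyp4a14 (115486200 to 115496142, the only member of the cluster on the minus strand), Cyp4a10 (115518264 to 115533649), Cyp4a31 (115563649 to 115579015) and Cyp4a32 (115600969 to 115621602). Cyp4f14 lies on the minus strand of chromosome 17 (32905070 to 32917342). Counts cover the exons of each gene. Several members are near copies of each other. The Cyp4a12a and Cyp4a12b transcripts were 98.3% identical over 2394 aligned bases, and 48.9% of the 50-base words of Cyp4a12a also occurred in Cyp4a12b. Cyp4a10 was 97.2% identical to Cyp4a32 and 95.7% to Cyp4a31, and it shared 30.5% of its words with other genes, against 46.8% for Cyp4a32 and 21.8% for Cyp4a31. Cyp4a14 (0.245%) and Cyp4f14 (2.72%) were nearly unique. The sources used here do not say how reads that match several genes were counted, or with which strand setting, so the split within these 2 sets of copies is uncertain.

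A RefSeq promoter (GRCm38.p6) was at hand for 2 of the 7 members, Cyp4a32 and Cyp4f14, and both are shown because they let the reader look at the start region of a member assigned to PPAR alpha beside that of a member outside the Cyp4a cluster. Each runs from 250 bases before to 50 bases after the gene's start in RefSeq, on the gene's own strand. For both genes this start differs from that of the positions given above. Capitals mark the best match to the direct repeat that PPAR alpha and its partner RXR bind (AGGTCA, then N, then AGGTCA, searched on both strands).
Cyp4a32, chr4:115600688-115600987, plus strand: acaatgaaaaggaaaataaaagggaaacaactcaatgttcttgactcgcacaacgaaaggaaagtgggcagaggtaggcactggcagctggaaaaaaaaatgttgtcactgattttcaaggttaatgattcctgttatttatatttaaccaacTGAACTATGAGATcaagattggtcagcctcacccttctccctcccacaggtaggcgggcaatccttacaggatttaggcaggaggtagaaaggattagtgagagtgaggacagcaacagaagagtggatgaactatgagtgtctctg
Cyp4f14, chr17:32917307-32917606, minus strand: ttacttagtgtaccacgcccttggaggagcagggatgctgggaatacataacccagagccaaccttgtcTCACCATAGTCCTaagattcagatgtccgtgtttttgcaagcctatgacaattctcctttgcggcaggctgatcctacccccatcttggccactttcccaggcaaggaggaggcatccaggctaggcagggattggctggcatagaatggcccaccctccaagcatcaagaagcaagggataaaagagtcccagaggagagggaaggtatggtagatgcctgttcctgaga
The best match in Cyp4a32 had 3 mismatches, on the strand opposite to the gene, a quality that 24.6% of 32851 promoters of the same length reach or exceed. The best match in Cyp4f14 had 4 mismatches, also on the opposite strand, reached or exceeded by 79.8%. Neither window held an exact AGGTCA on either strand, which 16.3% of promoters did.

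Library totals ran from 11938596 to 23250885 counts, so 3 counts correspond to 0.129 to 0.251 CPM (counts scaled to library size, with TMM factors for the values given below). The members took between 0.0408% and 0.243% of a library's counts. Knockout livers held less Degs1 RNA than all controls of their diet, at 35.9 to 39.3 against 80.4 to 87.9 CPM on chow and 26.1 to 41.6 against 60.2 to 101 CPM on the high-fat diet. The share of counts on genes of the GENCODE types sense_intronic and TEC is called the unspliced share below. It is a stand-in, because intronic reads were not measured. This share was between 0.0218% and 0.191%, with all 4 high-fat knockouts above all 8 chow livers. Malat1, a nuclear RNA, was at 249 to 1360 CPM in the chow livers. It was at 180 to 4028 CPM in high-fat controls and at 2949 to 3512 CPM in high-fat knockouts. High-fat control 3 and chow knockout 1 stood apart from their groups in earlier results. The diet calls on Cyp4a12a, Cyp4a12b and Cyp4f14 were kept without both of them. The male-specific Y-linked genes were expressed in every liver and Xist reached at most 0.266 CPM. The 8 markers of kidney, an organ where Cyp4a genes are also active, summed to at most 1.93 CPM in any liver, and Kap was at 0 in all.

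On chow the members spanned a wide range of levels. Compared per kilobase of exon, the control livers held Cyp4a14 at 166 ± 244, Cyp4f14 at 145 ± 9.42, Cyp4a10 at 130 ± 113 and Cyp4a12a at 83.1 ± 14.8 CPM per kb (SD, n = 4 each). Each of these overlapped with the next in range, and Cyp4f14 was above Cyp4a12a without overlap. Below them, with no overlap between neighbours, came Cyp4a12b (26.4 ± 5.68), Cyp4a32 (9.36 ± 2.20) and Cyp4a31 (0.948 ± 0.531 CPM per kb). In high-fat knockouts the order was Cyp4f14 (64.1 ± 18.2), Cyp4a10 (54.2 ± 22.3), Cyp4a14 (35.7 ± 17.3), Cyp4a12a (13.3 ± 4.36), Cyp4a32 (12.6 ± 3.90), Cyp4a12b (2.11 ± 1.55) and Cyp4a31 (0.690 ± 0.212 CPM per kb), and Cyp4a32 against Cyp4a12b was the only step there without overlap. On this per-kilobase scale Cyp4a12b stood above Cyp4a32 in every chow control and below it in every liver of both high-fat groups. In chow knockouts the 2 overlapped, at 11.3 to 41.3 against 6.31 to 23.8 CPM per kb. The lengths were not corrected for words shared with other genes (49.4% in Cyp4a12b, 46.8% in Cyp4a32, 0.245% in Cyp4a14). The order of the members is therefore uncertain.

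**Figure D1:**
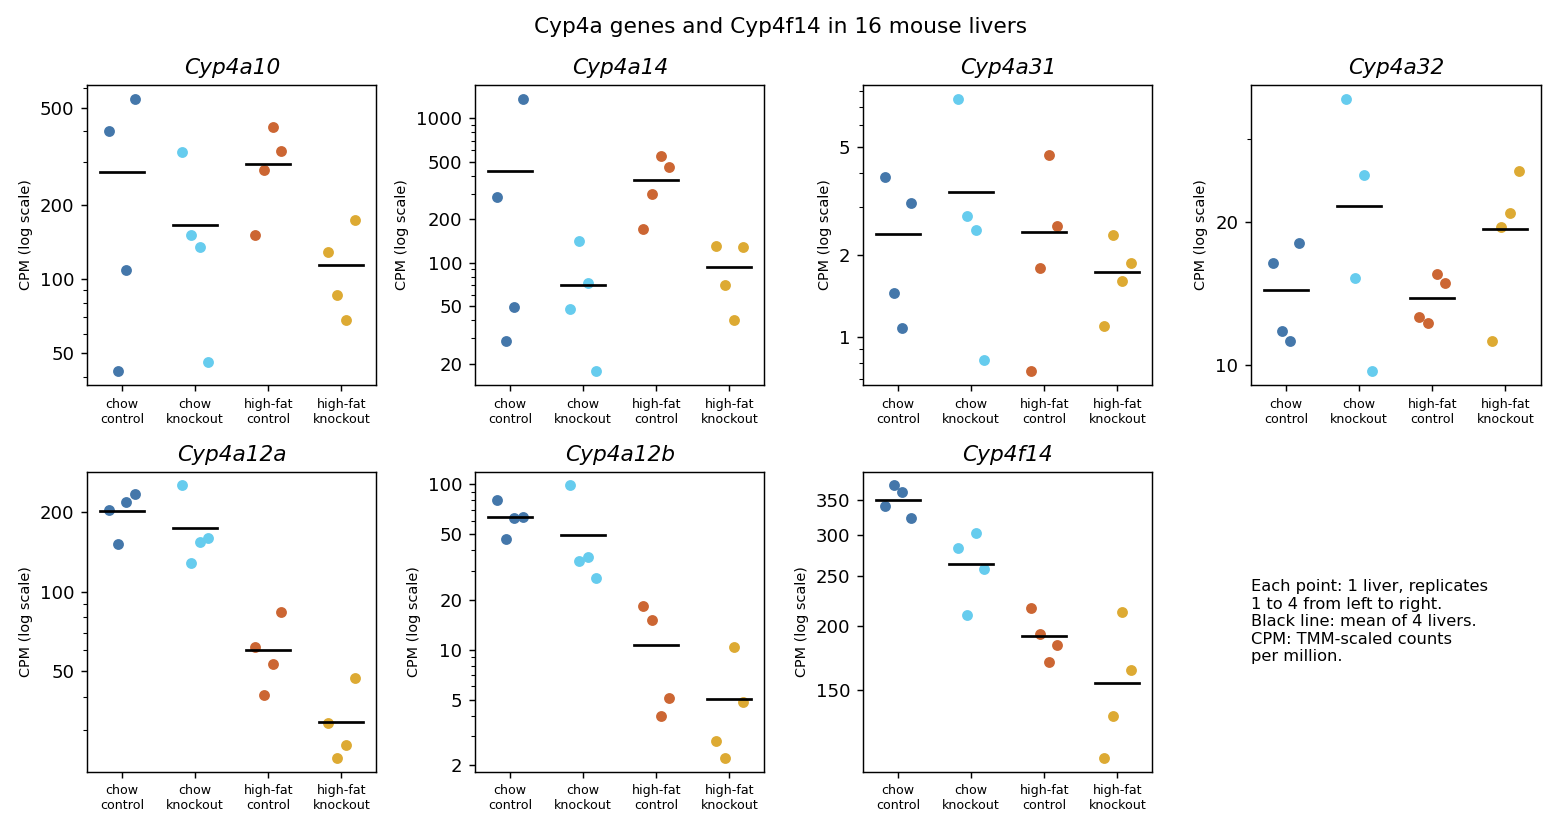
Level of each member in CPM (vertical axis, log scale) in the 4 groups (horizontal axis), with 1 point per liver and a line at the mean of 4. Cyp4a12a, Cyp4a12b and Cyp4f14 step down from chow to the high-fat diet, while Cyp4a10 and Cyp4a14 spread widely in the chow controls.

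The first question was how the high-fat diet changed these genes in livers with intact Degs1. In controls, 3 of the 7 members fell (edgeR quasi-likelihood test, Benjamini-Hochberg adjusted p under 0.05 over all genes), where 0.885% of all genes tested fell and 1.83% were called in either direction. They were Cyp4a12a, Cyp4a12b and Cyp4f14. None of the 4 members assigned to PPAR alpha was called in either direction, by edgeR, DESeq2 or limma-voom, and none reached an unadjusted p of 0.05 in edgeR, as 17.1% of all genes did. The chow and high-fat livers of the 3 called genes did not overlap, which held for 4.01% of all genes in this direction.

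Cyp4a12a, the 20-HETE synthase, stood at 204, 151, 218 and 233 CPM in the chow controls and at 61.9, 40.9, 53.4 and 83.9 CPM in the high-fat controls. Every high-fat liver was far below every chow liver. The fall was 3.35-fold (log2 fold change -1.74, SE 0.26, edgeR adjusted p = 0.0046), which placed it seventh by p among all genes. Cyp4a12b, its near copy, stood at 80.1, 46.8, 62.4 and 63.8 CPM on chow and at 18.5, 15.2, 3.99 and 5.10 CPM on the high-fat diet. The high-fat livers fell into a higher and a lower pair, and all were below chow. The fall was 5.94-fold (-2.57, SE 0.52, edgeR adjusted p = 0.0158). With the counts of the 2 copies summed before the fit, which removes the uncertainty of the split, the log2 fold change was -1.90 (SE 0.25, edgeR adjusted p = 0.00164).

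Cyp4f14, the leukotriene B4 hydroxylase, had the tightest groups, with 341, 374, 364 and 324 CPM in chow controls and 217, 192, 170 and 183 CPM in high-fat controls. The 2 groups were well apart. The fall was 1.84-fold (-0.88, SE 0.17, edgeR adjusted p = 0.0145). Without chow control 2 it was -0.83 and no longer called (edgeR adjusted p = 0.0568).

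The members assigned to PPAR alpha gave another picture. Cyp4a10 was at 400, 42.1, 109 and 544 CPM in chow controls and at 151, 279, 418 and 333 CPM in high-fat controls. Cyp4a14 was at 286, 28.8, 49.6 and 1367 CPM and at 172, 301, 550 and 461 CPM. In both genes chow controls 1 and 4 were high and 2 and 3 low, and the high-fat controls lay inside the chow range. The highest chow control exceeded the lowest 47.5-fold for Cyp4a14 and 12.9-fold for Cyp4a10, against 1.55-fold for Cyp4a12a and 1.16-fold for Cyp4f14. The log2 fold changes with diet were 0.11 (SE 0.61) for Cyp4a10 and -0.22 (SE 0.84) for Cyp4a14, with edgeR adjusted p of 0.957 and 0.933. Without chow control 4, the liver at 1367 CPM, the Cyp4a14 value was 1.63, and it was not called.

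The 2 copies at low level, Cyp4a32 and Cyp4a31, gave no call either. Cyp4a32 had 16.4, 11.8, 11.2 and 18.1 CPM in chow controls and 12.6, 12.3, 15.6 and 14.9 CPM in high-fat controls (log2 fold change -0.06, SE 0.32). Cyp4a31 had 3.87, 1.45, 1.08 and 3.11 against 0.746, 1.78, 4.67 and 2.55 CPM (0.04, SE 0.57). Both ranges overlapped, and the standard errors leave changes of the size seen in Cyp4f14 undetectable for Cyp4a31. The standard errors of Cyp4a10 (0.61) and Cyp4a14 (0.84) were larger still, so such changes would be missed there as well. The lack of a call in these 3 genes therefore does not show that the diet left them unchanged.

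The same diet comparison in knockouts called the same 3 members lower and none higher, where 5.35% of all genes fell and 10.6% were called in either direction. Cyp4a12a went from 252, 128, 154 and 159 CPM in chow knockouts to 31.9, 23.6, 26.4 and 47.2 CPM in high-fat knockouts. All 4 high-fat livers were below all 4 chow livers. The fall was 5.37-fold (-2.43, SE 0.26, edgeR adjusted p = 0.000167), second by p among all genes.

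Cyp4a12b went from 98.8, 34.3, 36.3 and 27.1 CPM to 2.81, 2.21, 10.3 and 4.86 CPM, again without overlap. The fall was 9.68-fold (-3.27, SE 0.55, edgeR adjusted p = 0.00311), and chow knockout 1 was far above the other 3 chow knockouts. The value was -2.68 without chow knockout 1 and -3.89 without high-fat knockout 3, and it was called in both fits. Non-overlap in this direction held for 12.4% of all genes. With the 2 copies summed the log2 fold change was -2.57 (SE 0.26, edgeR adjusted p = 9.04e-05).

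Cyp4f14 went from 283, 210, 302 and 257 CPM to 111, 134, 212 and 164 CPM. High-fat knockout 3, at 212 CPM, was above chow knockout 2, so the groups overlapped. The fall was 1.70-fold (-0.76, SE 0.17, edgeR adjusted p = 0.0127), and without high-fat knockout 2 it was -0.69 and not called (edgeR adjusted p = 0.0579).

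None of the 4 members assigned to PPAR alpha was called for diet in knockouts, by edgeR, DESeq2 or limma-voom, and none had an unadjusted edgeR p below 0.05, against 28.8% of all genes. Their log2 fold changes were -0.53 for Cyp4a10, 0.40 for Cyp4a14, -0.94 for Cyp4a31 and -0.16 for Cyp4a32, and all ranges overlapped. The Cyp4a14 value was 1.08 with the unspliced share as a covariate and 1.01 without chow knockout 2, and the Cyp4a31 value was -0.23 without chow knockout 1. Whether the diet response differed between genotypes was tested by the interaction. It called 0 of the 7 members and 0% of all genes, with 0 members (11.3% of all genes) at an unadjusted p below 0.05 and 0 by DESeq2 or limma-voom. For Cyp4a12a the interaction was -0.68 (SE 0.35, edgeR adjusted p = 0.480), so the larger fall in knockouts was not separable from that in controls.

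**Figure D2:**
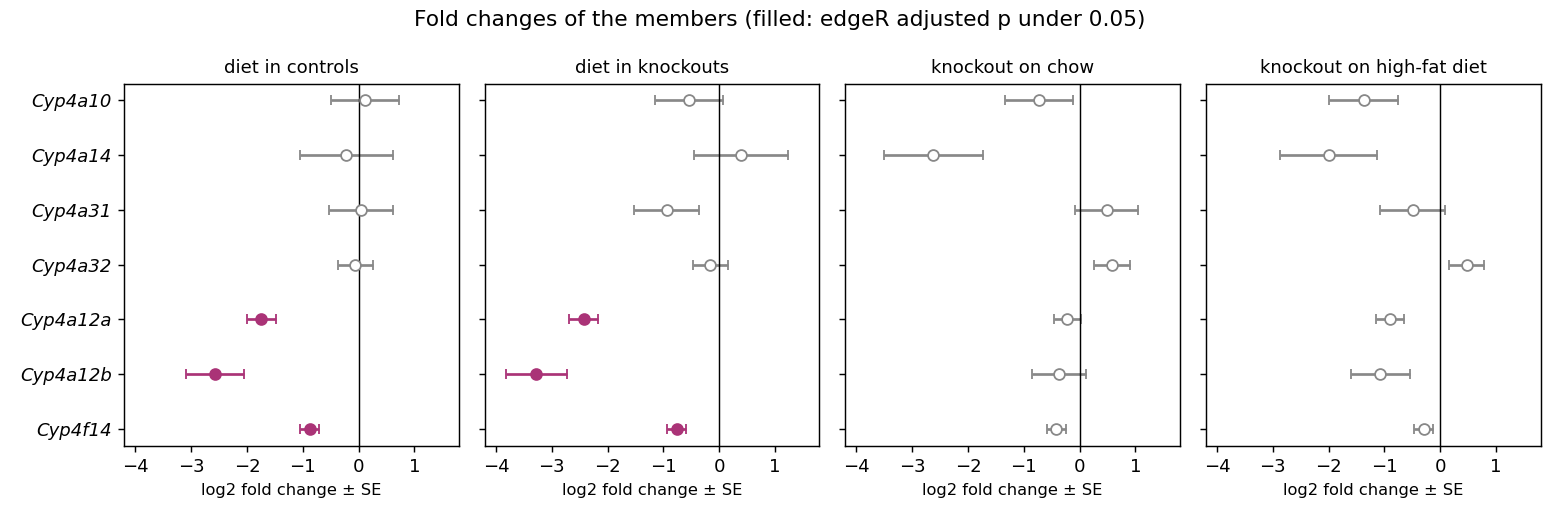
Log2 fold change (horizontal axis) with its standard error for each member (rows) in the 4 comparisons between groups (panels), filled where the edgeR adjusted p was under 0.05. The 3 filled members in both diet panels are Cyp4a12a, Cyp4a12b and Cyp4f14, from -0.76 to -3.27, and neither knockout panel has a filled point.

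The next question was whether loss of Degs1 changed the members. On chow it called 0 of 7, where 0.0139% of all genes were called. DESeq2 and limma-voom also called 0, and 2 members (Cyp4a14 and Cyp4f14) had an unadjusted edgeR p under 0.05, against 9.52% of all genes. Cyp4a14 was at 48.3, 142, 72.9 and 17.8 CPM in chow knockouts. Knockout 4 was below every chow control given above, and the other 3 lay within the control range. The value of -2.62 on the log2 scale (SE 0.89, edgeR adjusted p = 0.426) rested on chow control 4: without that liver it was -0.78 (SE 0.70), and limma-voom gave -1.48 with all livers. Cyp4a10 was at 330, 152, 135 and 45.8 CPM (-0.73, SE 0.61, edgeR adjusted p = 0.707), and this value moved to -0.15 without chow control 4 and to -1.30 without chow knockout 1.

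Cyp4f14 was lower in every chow knockout (210 to 302 CPM) than in every chow control (324 to 374 CPM). The log2 fold change was -0.41 (SE 0.17, edgeR adjusted p = 0.492). It failed the correction, and such a separation was found in 2.9% of all genes in the downward direction. Cyp4a12a (-0.22) overlapped between genotypes. Cyp4a12b (-0.37, SE 0.49) overlapped through chow knockout 1, at 98.8 CPM, while the other 3 chow knockouts (27.1 to 36.3 CPM) were below every chow control (46.8 to 80.1 CPM). Without that liver the value was -0.95 (edgeR adjusted p = 0.668), and a fit that also held the unspliced share gave -1.25 (edgeR adjusted p = 0.278). It was called in neither.

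Cyp4a32 at 36.5, 15.3, 25.2 and 9.70 CPM (0.58, SE 0.31) and Cyp4a31 at 7.51, 2.78, 2.48 and 0.819 CPM (0.48, SE 0.57) in chow knockouts overlapped with their controls. Chow knockout 1 was the highest of its group in both genes, and without it the values were 0.23 and -0.21.

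On the high-fat diet the knockout again called 0 of 7 members in edgeR, where 0.111% of all genes were called, and 0 in limma-voom. DESeq2 called Cyp4a12a lower (log2 fold change -0.89, DESeq2 adjusted p = 0.0259). It called 579 genes in this comparison, of 36140 given an unadjusted p without the low-count filter used for edgeR. Unadjusted edgeR p-values fell under 0.05 for Cyp4a10, Cyp4a14 and Cyp4a12a, 3 of 7 against 21.4% of all genes.

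Cyp4a14 was at 131, 70.6, 40.2 and 129 CPM in high-fat knockouts, each below every high-fat control (172 to 550 CPM). This separation was found in 7.78% of all genes in the downward direction. The difference was 4.0-fold (-2.0, SE 0.87, edgeR adjusted p = 0.195). A fit that also held the unspliced share gave -1.27 (SE 1.02).

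Cyp4a10 was at 129, 86.3, 68.2 and 173 CPM against 151 to 418 CPM in high-fat controls, with high-fat control 1 inside the knockout range (-1.37, SE 0.62, edgeR adjusted p = 0.214). Cyp4a12a ran from 23.6 to 47.2 CPM in the knockouts against 40.9 to 83.9 CPM in the controls, and only high-fat knockout 4 reached the control range (-0.90, SE 0.25, edgeR adjusted p = 0.103). Cyp4a12b gave -1.08 (SE 0.53, edgeR adjusted p = 0.246), which moved to -1.71 without high-fat knockout 3 and to -1.89 with the unspliced share as a covariate, both uncalled (edgeR adjusted p = 0.213 and 0.187). Both overlapped between genotypes.

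Cyp4a32 had the opposite sign at 11.2, 19.5, 20.9 and 25.6 CPM (0.48, SE 0.31, edgeR adjusted p = 0.375). Cyp4a31 at 1.09, 2.37, 1.6 and 1.86 CPM (-0.49, SE 0.58) and Cyp4f14 (-0.30, SE 0.17, edgeR adjusted p = 0.318) overlapped with their controls as well. The standard errors of Cyp4a10 and Cyp4a14 are the largest among the members on either diet, together with Cyp4a31, and differences as large as -2.62 in Cyp4a14 and -1.37 in Cyp4a10 were not called.

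The balance between the 2 branches of the family was described by the count ratio of the 4 members assigned to PPAR alpha to the Cyp4a12 copies. This ratio does not depend on how reads split within each set. It does depend on whether reads that match several genes were counted at all, which the sources used here do not say. Shared words made up 48.9% of Cyp4a12a, 30.5% of Cyp4a10 and 0.245% of Cyp4a14, so the level of the ratio is uncertain. The ratio was 2.49, 0.426, 0.610 and 6.51 in chow controls and 1.21, 1.93, 1.24 and 0.398 in chow knockouts. On the high-fat diet it was 4.18, 10.6, 17.2 and 9.11 in controls and 7.87, 6.94, 3.57 and 6.34 in knockouts. All 8 high-fat livers were above all chow livers except chow control 4, whose Cyp4a14 level was the highest measured. The mean log2 ratio was 0.52 ± 1.82 and 0.05 ± 0.97 on chow (controls, then knockouts) and 3.19 ± 0.85 and 2.57 ± 0.51 on the high-fat diet (SD, n = 4 each). The summed Cyp4a12 level ranged from 162 to 350 CPM over the chow livers and from 25.8 to 89.0 CPM over the high-fat livers, without overlap. The summed level of the other 4 ranged from 74.1 to 1932 CPM on chow and from 131 to 989 CPM on the high-fat diet.

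**Figure D3:**
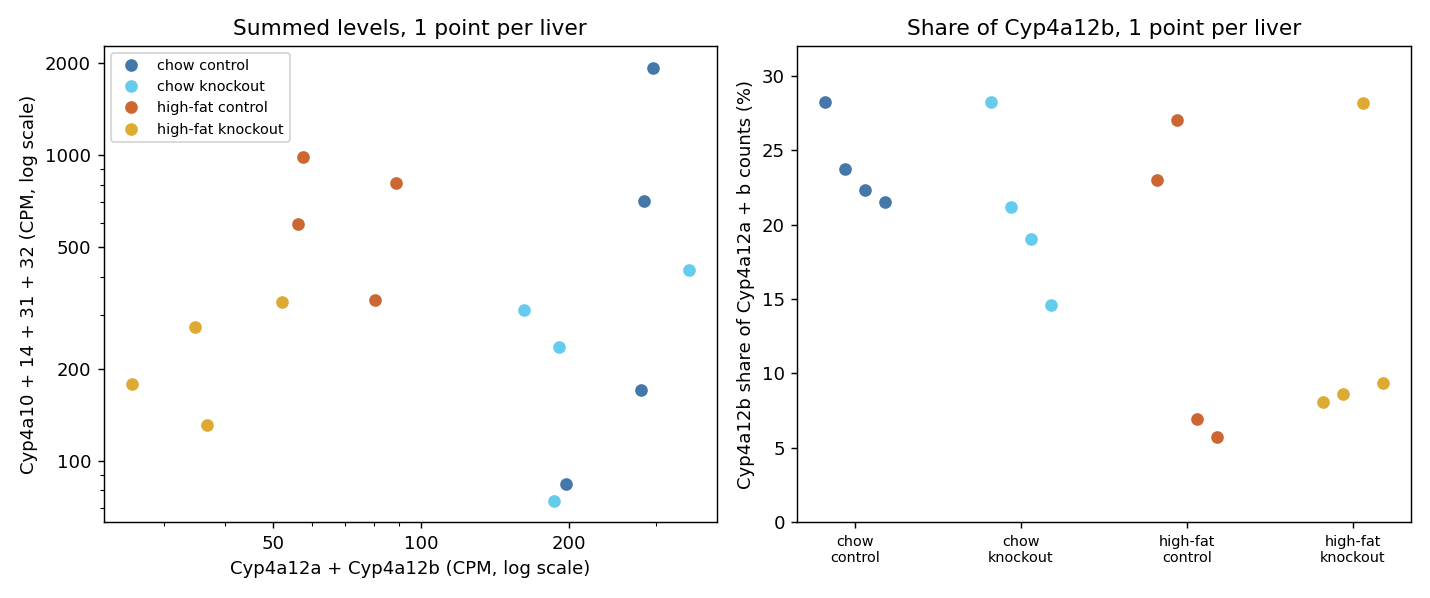
Left, summed level of Cyp4a10, Cyp4a14, Cyp4a31 and Cyp4a32 (vertical axis, CPM, log scale) against that of Cyp4a12a and Cyp4a12b (horizontal axis, CPM, log scale), with 1 point per liver. Right, share of Cyp4a12b in the counts of the 2 copies (vertical axis, percent) by group. The high-fat livers lie left of the chow livers on the Cyp4a12 axis, between 25.8 and 89.0 CPM, and overlap them on the other axis.

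Liver-to-liver variation within groups was related for 5 chosen pairs of members, on log2(CPM + 1) with group means removed, over 16 livers and with 100000 permutations. The values were shuffled across all livers and not within groups. The groups differ in spread and their means were removed, so the permutation p-values may be too small. Cyp4a10 and Cyp4a14 went together, with Pearson r = 0.858 (permutation p = 1e-05, the smallest these permutations can give, adjusted 5e-05) and Spearman rho = 0.826 (permutation p = 0.00016, adjusted 0.0008). Without the 2 livers farthest from the median of Cyp4a10, r was 0.775. The transcripts compared share no 50-base word, and both values of a liver come from the same library.

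The Cyp4a12 copies, which do share words, gave r = 0.182 (permutation p = 0.499, adjusted 0.499) and rho = 0.241 (permutation p = 0.368, adjusted 0.368), and r = -0.09 without the 2 farthest livers. Cyp4a10 with Cyp4a12a gave r = 0.497 (permutation p = 0.0515, adjusted 0.122), and rho = 0.512 (permutation p = 0.0451, adjusted 0.0752), with r = 0.440 without the 2 farthest. Cyp4f14 tended the other way, with r = -0.459 against Cyp4a14 (permutation p = 0.0732, adjusted 0.122), rho = -0.538 (permutation p = 0.0339, adjusted 0.0752) and r = -0.51 without the 2 farthest. Against Cyp4a10 it gave r = -0.274 (permutation p = 0.305, adjusted 0.381), rho = -0.300 (permutation p = 0.259, adjusted 0.324) and r = -0.309 without the 2 farthest. Apart from Cyp4a10 with Cyp4a14, no pair passed after adjustment.

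Among 9986 genes whose mean log2 CPM reached 2, those most like Cyp4a14 over the 16 livers by the same measure were Esyt2 (r = 0.888), Hadha (0.880), Rabep1 (0.866), Retsat (0.859) and Anapc4 (0.855). Hadha encodes a subunit of the mitochondrial trifunctional protein of beta-oxidation. Those most like Cyp4a10 were Rabep1 (0.864), Cyp2j6 (0.862), Grpel2 (0.845), Snap29 (0.839) and Pitrm1 (0.838). Those most like Cyp4a12a were Arhgap29 (0.823), Socs3 (0.803), Stard7 (0.801), Camk2g (0.798) and Resf1 (0.792). Those most like Cyp4f14 were Serpine2 (0.843), Tgfbr3 (0.839), Npr2 (0.838), Mup7 (0.834) and Slco2a1 (0.83). These are the highest of many correlations and are given as descriptions, with no test.

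The remaining genes of the family and its electron donors were examined next. Of 14 other Cyp4 genes, 7 passed the filter. None was called for diet in controls, with 1 at an unadjusted edgeR p under 0.05 (Cyp4f13) and a median log2 fold change of -0.01. In knockouts the diet raised Cyp4f16 (1.08, SE 0.28, edgeR adjusted p = 0.0213) and lowered Cyp4f13 (-0.52, SE 0.15, edgeR adjusted p = 0.0413). Of 4 electron-transfer partners of P450 enzymes, Cyb5r3, the reductase of cytochrome b5, fell with diet in both genotypes, from 442 ± 41.3 to 270 ± 41.8 CPM in controls (-0.71, edgeR adjusted p = 0.00909) and from 439 ± 25.8 to 287 ± 19.8 CPM in knockouts (-0.61, edgeR adjusted p = 0.00906; SD, n = 4 each). Por, the main P450 reductase, was not called (-0.45 and -0.38, SE 0.39 each).

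The enzymes and transporters of the steps after omega-hydroxylation were taken as a further list. Of 26 genes of the dicarboxylic acid route, edgeR called 0 there, with 8 at an unadjusted p under 0.05 beside 17.1% of all genes, and the median log2 fold change was 0.27 beside 0.01 over all genes. In knockouts 4 of 26 fell, beside 5.35% of all genes: Abcd3, a peroxisomal fatty acyl transporter (-0.66, SE 0.15, edgeR adjusted p = 0.0132), the alcohol dehydrogenases Adh4 (-0.67, edgeR adjusted p = 0.0133) and Adh5 (-0.46, edgeR adjusted p = 0.0434), and the acyl-CoA synthetase Acsl1 (-0.58, edgeR adjusted p = 0.0187). None rose, and the median was -0.05 beside 0.02.

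Other PPAR alpha targets were set beside Cyp4a10 and Cyp4a14. Of 47 listed, 45 were tested. With diet in controls 2 of the 45 were called, beside 1.83% of all genes. Both rose, Mgll, a monoacylglycerol lipase (0.66, edgeR adjusted p = 0.0415), and the fatty acid transporter Cd36 (1.74, edgeR adjusted p = 0.0447). The list's median was 0.28, with 34 of 45 positive and 11 negative. An unadjusted edgeR p under 0.05 was reached by 13 of 45, beside 17.1% of all genes. With diet in knockouts 5 of 45 were called, beside 10.6% of all genes, a share near the background. Cidec, a lipid droplet protein (4.17, edgeR adjusted p = 0.00893), Cd36 (1.90, edgeR adjusted p = 0.0127) and Vnn1, a pantetheinase (1.39, edgeR adjusted p = 0.0277), rose, while Acsl1 (-0.58) and the acyl-CoA thioesterase Acot1 (-1.31, edgeR adjusted p = 0.0304) fell, with a median of -0.06. For the knockout on the high-fat diet edgeR called 0, with 20 of 45 at an unadjusted p under 0.05 beside 21.4% of all genes, and 35 of 45 had a negative sign (median -0.35 beside 0.03 over all genes). Those with the smallest p there were Eci1 (-0.59), Acadm (-0.60), Slc25a20 (-0.66) and Ech1 (-0.60), with edgeR adjusted p from 0.102 to 0.103. The negative signs were not particular to this list. In the same comparison 10 of 10 hepatocyte markers (median -0.36) and 24 of 26 genes of the dicarboxylic acid route (median -0.33) were negative.

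Ppara itself was at 171 ± 42.6 CPM in chow controls and 215 ± 96.5 CPM in chow knockouts, and on the high-fat diet at 225 ± 43.8 CPM in controls and 257 ± 41.5 CPM in knockouts (SD, n = 4 each), and it was called in no comparison. Of 19 nuclear receptors and cofactors listed with it, Nr1i3, the receptor CAR, rose with diet in controls (1.34, edgeR adjusted p = 0.00909) and in knockouts (1.03, edgeR adjusted p = 0.0139), and Rxrg rose in knockouts (0.81, edgeR adjusted p = 0.0428). These are 1 and 2 of 19, beside 1.83% and 10.6% of all genes.

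Cyp4a12a and Cyp4a12b were set beside 14 other male-biased liver genes. In controls 2 of the 14 fell with diet, beside 0.885% of all genes, the complement gene C6 (-1.41, edgeR adjusted p = 0.00909) and Mup20, a major urinary protein (-0.91, edgeR adjusted p = 0.0352), and the median was -0.93, with all 14 negative. In knockouts 9 of the 14 fell, beside 5.35% of all genes: Mup20 (-1.45), Slco1a1 (-1.59), Susd4 (-1.47), C6 (-1.30), Cyp7b1 (-1.54), Mup7 (-2.39), Ugt2b1 (-0.94), Nudt7 (-0.98) and Hsd3b5 (-2.39), with a median of -1.36 and 12 of 14 negative. The range over the 14 genes was -1.92 to -0.18 in controls and -2.39 to 0.18 in knockouts. Cyp4a12a in controls lay within that range, and its value in knockouts and both values of Cyp4a12b lay below it.

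Of 16 female-biased genes listed, 8 were tested. With diet 4 rose in controls (Cyp2b9, Cyp17a1, Hao2 and Cyp2b13), where 135 of 14351 genes rose. In knockouts 2 rose (Cyp2b9 and Cyp17a1), where 748 of 14351 genes rose. None was called lower, but 2 of the 8 were negative in controls and 1 in knockouts. The range was -2.33 to 9.61 in controls (median 2.09) and -2.54 to 9.04 in knockouts (median 1.28). Cyp2b9 went from at most 0.316 CPM in any chow control to 37.2 to 158 CPM in the high-fat controls. Of 14 genes of the growth hormone and androgen axis none was called for diet in controls by edgeR, with 4 at an unadjusted p under 0.05 beside 17.1% of all genes. In knockouts 4 of 14 were called, beside 10.6% of all genes. Igf1 (-0.71, edgeR adjusted p = 0.00439), the growth hormone receptor Ghr (-0.42, edgeR adjusted p = 0.0262) and its feedback inhibitor Socs2 (-2.02, edgeR adjusted p = 0.0499) fell, and Stat5a rose (1.06, edgeR adjusted p = 0.00641).

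**Figure D4:**
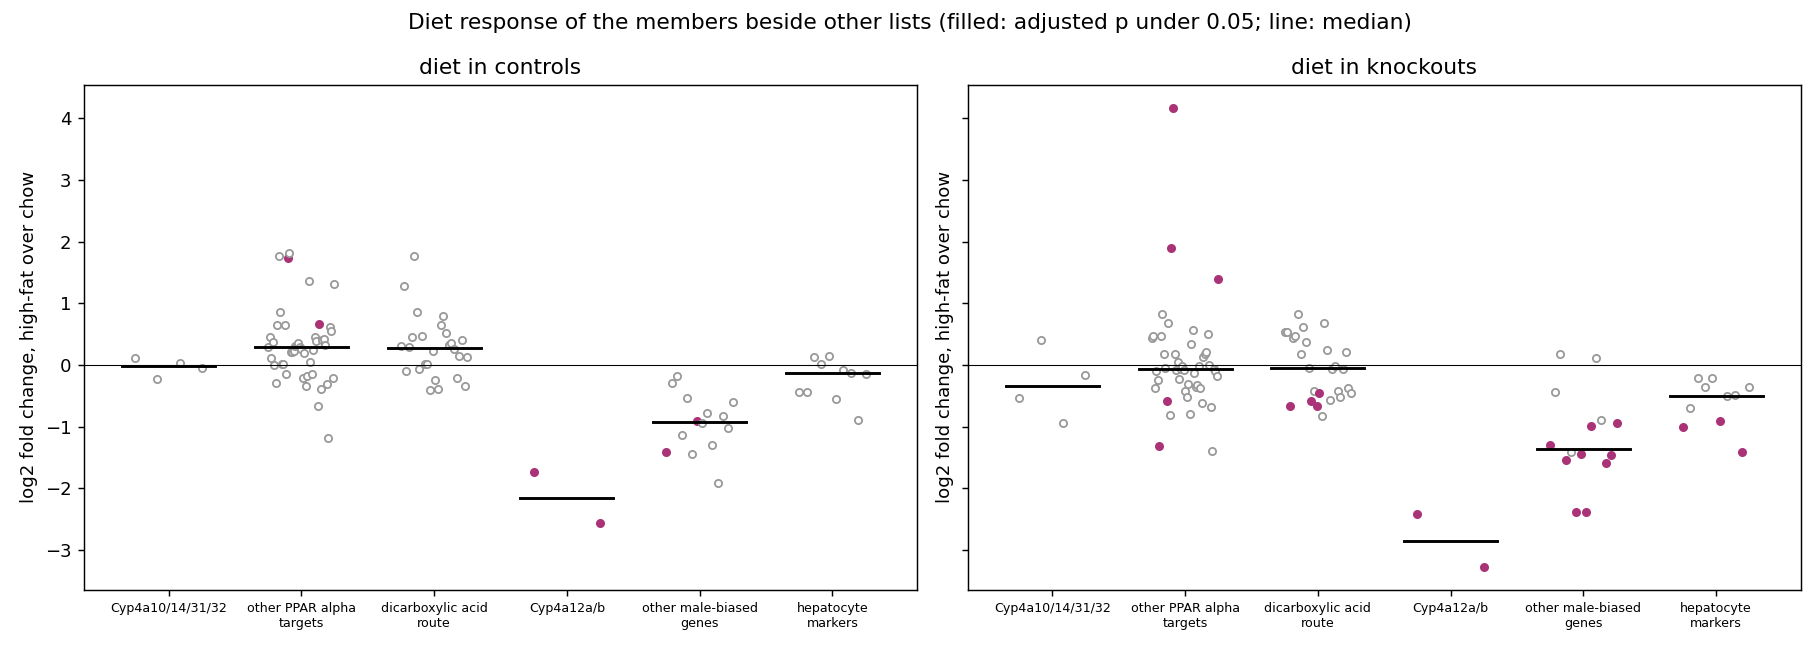
Log2 fold change of high-fat over chow (vertical axis) in controls and in knockouts (panels), with 1 point per gene and a line at each list's median, filled where the edgeR adjusted p was under 0.05. Cyp4a12b lies below all the other male-biased genes in both panels. Cyp4a12a lies within their range in controls and just below it in knockouts. The 4 members assigned to PPAR alpha lie between -0.22 and 0.11 in controls and between -0.94 and 0.40 in knockouts, with no filled point.

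In whole liver, fewer cells of a type and less RNA per cell cannot be told apart. The 10 hepatocyte markers summed to 134400 to 149600 CPM in chow controls and 145200 to 174000 CPM in chow knockouts. On the high-fat diet they summed to 106200 to 140300 CPM in controls and 83920 to 106000 CPM in knockouts. Of these 10, 0 were called for diet in controls by edgeR (3 with an unadjusted p under 0.05, median -0.14), and Alb (-1.0), Tat (-1.41) and Fgb (-0.90) fell in knockouts (median -0.50). The fall of Cyp4a12a and Cyp4a12b, at -1.74 to -3.27, was larger than that of every hepatocyte marker in the same genotype, which went down to -0.89 in controls and -1.41 in knockouts. That of Cyp4f14, the other called member, was within the marker range in both genotypes, at -0.88 in controls and -0.76 in knockouts. With diet in knockouts, 3 of 11 macrophage markers and 4 of 10 stellate markers rose and none fell, and 8 of each list had a positive sign. Over all genes 748 of 14351 rose there, and 10.6% were called in either direction. In controls none of either list was called for diet, where 1.83% of all genes were, and 8 of each list had a negative sign. The macrophage list summed to 338 to 551 CPM in chow knockouts and 365 to 688 CPM in high-fat knockouts, and the stellate list to 441 to 461 and 494 to 751 CPM. With the unspliced share as a covariate, Cyp4a12a, Cyp4a12b and Cyp4f14 were still called for diet in both genotypes. The covariate moved Cyp4a12b most, to -3.74 in controls and -4.38 in knockouts.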

How the data were processed

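Per the labels' protocols, liver RNA was depleted with Ribo-Zero Gold and made into TruSeq Stranded libraries. The deposited table holds whole-number read counts per Ensembl gene, with no normalization by the authors. The submitters' processing notes name STAR 2.5.4a, featureCounts 1.5.1, DESeq2 and the build GRCm38. All 16 columns matched a label. The labels number the livers without saying that they are separate animals, so p-values measure only the spread between these livers, which may be technical.

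Genes were filtered with filterByExpr (minimum count 10), scaled by TMM, and fitted with edgeR 4.0.16 in R 4.3.3, with a term per group over 16 livers. Quasi-likelihood F tests were adjusted by Benjamini-Hochberg over 14351 genes, with a threshold of 0.05. Standard errors are log2 fold changes, without sign, divided by the root of F. The fit was tested on simulated counts. DESeq2 1.42.0, limma-voom 3.58.1, other scaling factors, no filter, fits of only the groups compared, summed copies, a covariate, and each liver left out were alternatives. Symbols, positions and exonic lengths came from GENCODE M21 (GRCm38).

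The members and gene lists were chosen with earlier results of these data known. The text names the 7 members in every comparison, every called gene and up to 4 genes with the smallest p of a list, and the 5 genes most like each of 4 members. Hepatocyte markers named are those called, and Ppara, Xist, Kap and Malat1 were named after their values were seen.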

Additional observations from a re-analysis of the deposited data

Results flagged for a closer look

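Cyp4a12b stood at 98.8 CPM in chow knockout 1, against 27.1 to 36.3 CPM in the other 3 chow knockouts, and this gap was 0.872 of the group's range (Dixon's test for 4 samples). The share of Cyp4a12b in the counts of Cyp4a12a and Cyp4a12b was 28.2% in high-fat knockout 3, against 8.10%, 8.58% and 9.34% in the other high-fat knockouts, with a gap of 0.938 of the range. These were 2 of 36 groups examined, and chance flags about 1 in 20.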

How the results depend on the processing

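The diet calls on Cyp4a12a and Cyp4a12b were kept under every alternative run, and that on Cyp4f14 under all but 2, with 2 to 3 members called in either genotype when each liver was left out. The knockout and interaction counts stayed at 0 in those fits (0 to 0). Without the low-count filter the knockout called 2 members on chow and 4 on the high-fat diet. That fit took the standard error of Cyp4a14 on chow from 0.89 to 0.19 and called 308 and 964 of 36204 genes in all, against 2 and 16. DESeq2 called 1 member for the knockout on the high-fat diet, where it called 579 of the 36140 genes given an unadjusted p. No called value changed sign. Of uncalled values, leaving out high-fat control 3 and chow knockout 1 together turned Cyp4a31 (knockout on chow -0.20, knockout on high-fat diet 0.0258, diet in controls -0.47, interaction 0.23), Cyp4a10 (diet in controls -0.11, diet in knockouts 0.0400, interaction 0.15) and Cyp4a32 (diet in knockouts 0.20, interaction 0.32). Limma-voom turned Cyp4a14 (diet in controls 1.14, interaction -0.54), Cyp4a31 (diet in controls -0.0381) and Cyp4a32 (interaction 0.00727). The covariate turned Cyp4a31 (knockout on high-fat diet 0.0455) and Cyp4a14 (diet in controls 0.14). Leaving out single livers gave ranges across 0 for Cyp4a31 (knockout on chow -0.21 to 0.82, knockout on high-fat diet -0.80 to 0.0260, diet in controls -0.47 to 0.36), Cyp4a10 (diet in controls -0.23 to 0.71, diet in knockouts -0.84 to 0.0484), Cyp4a14 (diet in controls -0.59 to 1.63, interaction -1.23 to 1.22), Cyp4a32 (diet in controls -0.14 to 0.10, diet in knockouts -0.39 to 0.21, interaction -0.36 to 0.25) and Cyp4f14 (interaction -0.0820 to 0.24). The cause of these shifts was not tested. No paired analysis was possible because the labels give no shared replicate numbers. Depth limits Cyp4a31, at 0.746 to 7.51 CPM.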

Other observations

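The count ratio of Cyp4a14 to Cyp4a10, which share no 50-base word, was 0.716, 0.684, 0.455 and 2.51 in chow controls and 0.146, 0.938, 0.538 and 0.388 in chow knockouts. It was 1.14, 1.08, 1.32 and 1.38 in high-fat controls and 1.02, 0.818, 0.590 and 0.746 in high-fat knockouts. The 4 high-fat controls were all above the 4 high-fat knockouts, and the chow livers spread over a wider range than either. This pattern was seen in the data and not tested.

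The share of Cyp4a12b in the counts of the Cyp4a12 copies was 21.5% to 28.2% in chow controls and 14.6% to 28.2% in chow knockouts. In high-fat controls it was 23%, 27.1%, 6.96% and 5.73%, so livers 1 and 2 lay in the chow range and livers 3 and 4 far below it. In high-fat knockouts 1 liver of 4 lay in the chow range. How reads common to both copies were counted was not tested.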
